A study of Mus musculus with 6 samples.

Results

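The myogenic transcription factors Pax7, Myf5, Myod1, Myog, Myf6, Mef2a, Mef2c, Mef2d and Six4 were followed in C2C12 cells treated with 5-fluorouracil (5-FU). They were chosen by gene symbol, and all 9 listed symbols matched 1 row each among the 21899 genes of the table. C2C12 is a clonal mouse myoblast line that withdraws from the cell cycle and fuses into myotubes when serum is lowered; the labels call the cells wild-type myocytes. The treated cells received 5-FU at 5 µg per L for 24 hours, a dose described as metronomic, meaning low and sustained, and the comparison cells received phosphate-buffered saline (PBS), for which no duration is given. Each group had 3 libraries of mRNA. The labels do not state whether these came from separate cultures. The p-values therefore set the group difference against the spread inside the groups of these 6 libraries, and may not extend to other cultures. For 5-FU replicates 2 and 3 the labels' line name ends in digits other than those of C2C12; their titles name C2C12, which was used here.

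The myogenic regulatory factors Myf5, Myod1, Myog and Myf6 are basic helix-loop-helix proteins that pair with E proteins and bind short DNA elements called E-boxes. Myf5 and Myod1 commit cells to the muscle lineage, Myog drives the step into differentiation, and Myf6 (also called MRF4) acts mainly in late differentiation and mature fibres. The MEF2 proteins are MADS-box factors that bind A/T-rich elements and work together with the helix-loop-helix factors. Six4 is a homeodomain protein that binds MEF3 elements in muscle promoters. Pax7 is the paired-box factor of satellite cells, the stem cells of adult muscle. 5-FU is a pyrimidine analogue that inhibits thymidylate synthase and is incorporated into RNA.

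Libraries held 19583312 to 23016735 estimated counts in the 5-FU group and 20614219 to 22312692 in the PBS group. All 9 myoblast markers (Myod1, Myf5, Des, Cdh15, Mcam, Cdh2, Vim, Chrna1 and Itga7) were detected. They summed to 9566 to 9868 TPM (an abundance corrected for transcript length and library total) in 5-FU libraries and 9035 to 9337 TPM in PBS libraries. Vim was the highest of them, while over all 6 libraries Myod1 stood at 207 to 238 TPM and Myf5 at 43.5 to 60.1 TPM. Markers of other cell types summed to much less than the 9 myoblast markers. The 9 adipocyte markers summed to 45.6 to 53.4 TPM in 5-FU libraries and 49.97 to 50.49 TPM in PBS libraries, with Cebpa the highest and Lep listed at 0. The 9 osteoblast and chondrocyte markers summed to 55.4 to 55.7 TPM with 5-FU and 46.0 to 53.3 TPM with PBS, with Sox9 the highest and Ibsp listed at 0. Leukocyte markers, 9 in number, summed to 6.07 to 9.23 TPM with 5-FU and 4.88 to 6.66 TPM with PBS, with Cd68 the highest. Endothelial markers (8 genes, none at 0) summed to 0.489 to 0.915 TPM with 5-FU and 0.184 to 0.347 TPM with PBS. Of 8 neural markers, which summed to 163 to 171 TPM with 5-FU and 155 to 162 TPM with PBS, Tubb3 was the highest, and Rbfox3, Snap25, Syt1 and Olig2 were listed at 0. The part of these sums in the results was not tested.

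One library of the 5-FU group stood apart for muscle genes. Among the 3 libraries of the 5-FU group, replicate 2 had the highest level of all 28 tested early differentiation targets and of 34 of 36 tested late muscle and MEF2 targets, against 34.0% of all genes tested. It was also the highest of the 3 for Myf5, Myod1, Myog, Mef2a, Mef2c and Mef2d. In the PBS group, replicate 2 was likewise the highest for 19 of the 28 early and 29 of the 36 late targets. It was so for 28.8% of all genes tested. In bulk RNA, more cells that differentiate and more transcript in each cell cannot be told apart.

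No member passed the test for a difference between 5-FU and PBS. edgeR's quasi-likelihood test, adjusted over all 12135 genes tested, called 0 of the 9 members at an adjusted p under 0.05, where it called 7.14% of all genes (3.87% higher and 3.26% lower). DESeq2 and limma-voom called 0 members too, where they called 8.08% and 6.89% of the genes to which they gave an adjusted p. All 9 members passed the filter on low counts. Refits called 5.38%, 4.08% and 4.05% of all genes without 5-FU replicates 1, 2 and 3, and 4.07%, 2.04% and 3.88% without PBS replicates 1, 2 and 3. Of the members, the refit without 5-FU replicate 1 called 1 (Six4), that without 5-FU replicate 3 called 1 (Myog), and the other refits called 0. At an unadjusted p under 0.05 there were 5 members, Myog, Six4, Myf5, Mef2d and Myod1, all with the higher mean in 5-FU libraries, where 12.7% of all genes tested met that rule in that direction. DESeq2 gave 3 members at an unadjusted p under 0.05 in that direction (9.61% of all genes) and limma-voom 5 (12.7%). In 4 of the 9 (Myf5, Myod1, Mef2d and Six4) all 3 libraries of the 5-FU group lay above all 3 of the PBS group in CPM (the count scaled by library size), as in 17.4% of all genes tested. The median log2 fold change of 5-FU over PBS was 0.097 over the 9 members and 0.001 over all genes tested. None of the 9 is in the authors' deposited table of 186 genes, all of which have an absolute log2 ratio of at least 0.585 there.

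**Figure D1:**
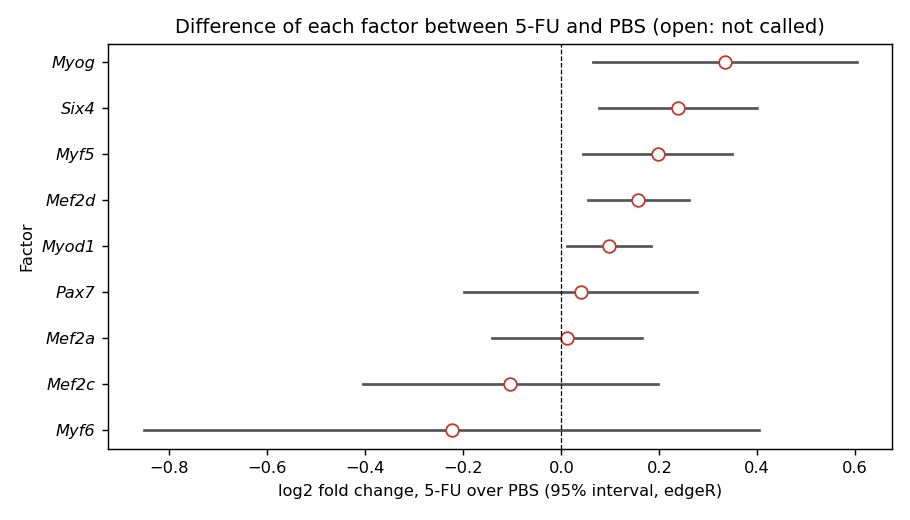
Log2 fold change of 5-FU over PBS (x axis) for each of the 9 factors (rows), as points with 95% intervals derived from edgeR's test (n = 3 libraries per group). Open points did not pass the adjusted test. Myog, Six4, Myf5, Mef2d and Myod1 have intervals above 0, and none of the 9 reached an adjusted p under 0.05.

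Levels between genes were compared per length, in TPM. The order over all 6 libraries was Myog, Myod1, Mef2d, Myf5, Mef2a, Six4, Mef2c, Pax7 and Myf6, and no neighbours in this order overlapped in their ranges. Myog was 1.77 times as high as Myod1 by mean level, and Myod1 was 2.06 times as high as Mef2d. The closest neighbours were Mef2c and Pax7, with a lowest level of 4.62 TPM for Mef2c and a highest of 4.19 TPM for Pax7. In CPM, which is not corrected for length, Mef2a stood above Myf5 in the order.

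**Figure D2:**
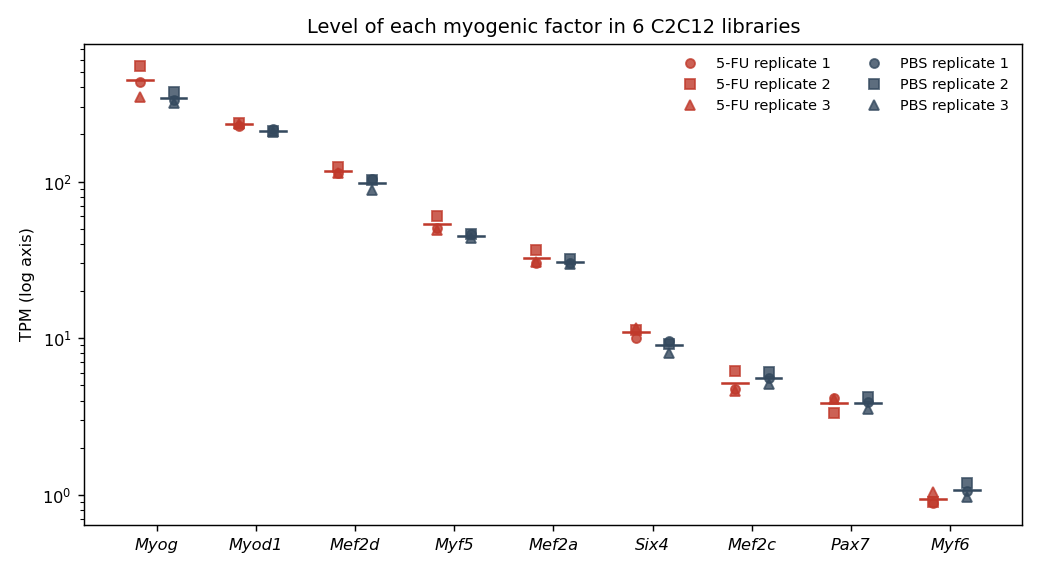
TPM on a log axis (y axis) of each of the 9 factors (x axis, ordered by mean level) in each library, with 5-FU libraries in red on the left and PBS libraries in dark blue on the right of each pair; symbols mark replicates 1 to 3 and bars the group mean. The order of the factors is the same in both groups, from Myog at 349 to 548 TPM with 5-FU and 319 to 373 TPM with PBS down to Myf6 at about 1 TPM.

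Myog, which encodes myogenin, was the most abundant member and had the largest log2 fold change. It stood at 324, 403 and 259 CPM in 5-FU replicates 1, 2 and 3, against 245, 283 and 246 CPM in PBS replicates 1, 2 and 3. Replicates 1 and 2 of the 5-FU group lay above every PBS library, while replicate 3 lay below PBS replicate 2, so that the groups overlapped. The means were 329 ± 72 CPM with 5-FU and 258 ± 21 CPM with PBS (SD, n = 3 each), a log2 fold change of 0.33 with a 95% interval of 0.066 to 0.60 (edgeR adjusted p = 0.123). The value rested on single libraries. Without 5-FU replicate 2 the log2 fold change was 0.16 (edgeR adjusted p = 0.340). Without 5-FU replicate 3 it was 0.47 and passed the test (edgeR adjusted p = 0.0158), in a refit that called 4.05% of all genes. Within the 5-FU group the coefficient of variation of Myog was larger than that of 98.8% of the 10018 tested genes with a mean of at least 5 CPM, whose median was 4.94%. In the PBS group it was 8.28%, larger than that of 79.9% of these genes.

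The proximal promoter of Myog is shown because it held matches to general motifs of 3 classes of these factors. One of 3 Mef2c windows is shown because it held the same 3 motifs, and a Six4 window because it held only the MEF3 element. Sequences are those of RefSeq (GRCm38.p6), 250 bases before to 50 bases after the gene's start, and 7 of the 9 members matched an entry (10 start sites); Myod1 and Myf6 did not. Capitals mark matches to the E-box CANNTG, to the MEF3 element TCAGGTT and to the core of the MEF2 element, which is TA, then 4 bases that are each A or T, then TA. Both strands were read, no matches shown overlap, and the motifs were picked with the Myog sequence seen.
Myog (chr1:134289754-134290053, plus strand): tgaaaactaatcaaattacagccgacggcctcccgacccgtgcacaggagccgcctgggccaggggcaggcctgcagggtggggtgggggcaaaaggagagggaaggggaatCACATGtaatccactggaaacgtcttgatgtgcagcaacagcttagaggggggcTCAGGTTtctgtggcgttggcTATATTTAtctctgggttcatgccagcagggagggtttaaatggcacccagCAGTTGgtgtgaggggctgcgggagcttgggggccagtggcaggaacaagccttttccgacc
Six4 (chr12:73113196-73113495, minus strand): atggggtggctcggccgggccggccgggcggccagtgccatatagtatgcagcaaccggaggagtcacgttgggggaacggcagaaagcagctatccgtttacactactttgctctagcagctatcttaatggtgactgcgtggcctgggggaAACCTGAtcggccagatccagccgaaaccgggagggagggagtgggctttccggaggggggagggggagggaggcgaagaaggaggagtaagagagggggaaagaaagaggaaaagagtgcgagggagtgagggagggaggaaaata
Mef2c (chr13:83503784-83504083, plus strand): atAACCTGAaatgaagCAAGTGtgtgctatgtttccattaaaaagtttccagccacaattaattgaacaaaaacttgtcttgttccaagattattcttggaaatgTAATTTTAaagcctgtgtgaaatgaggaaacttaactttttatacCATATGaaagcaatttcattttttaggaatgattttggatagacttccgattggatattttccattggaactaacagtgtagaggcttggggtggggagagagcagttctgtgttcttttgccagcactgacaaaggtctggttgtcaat
In the Myog window the E-boxes began 138 and 12 bases before the gene's start, the MEF3 element 84 bases and the MEF2 core 63 bases before it. In Six4 the MEF3 element lay on the opposite strand and began 97 bases before the start, and its other window held none of the 3 motifs. In the Mef2c window shown, the E-boxes began 234 and 100 bases, the MEF3 element 248 bases and the MEF2 core 145 bases before that start; the other Mef2c windows held 1 E-box and no motif. Mef2a held a MEF2 core at its start, and the Mef2d, Pax7 and Myf5 windows held none of the 3. Of all 32851 such windows 72.3% held an E-box, 4.07% the MEF3 element and 9.32% the MEF2 core. The narrower E-box forms CAGCTG and CACCTG were also searched for and matched no window of a member. They were held by 16.3% and 20.2% of all windows. A match describes letters and shows no binding.

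Myod1, the lineage factor that can convert other cells to muscle, stood at 210.8, 217.8 and 216.1 CPM in 5-FU replicates 1 to 3, against 199.3, 198.6 and 198.9 CPM in PBS replicates 1 to 3. Every 5-FU library was above every PBS library, by a small margin. The log2 fold change was 0.097 with a 95% interval of 0.012 to 0.18 (edgeR adjusted p = 0.155), a fold of 1.07. The coefficient of variation of Myod1 was 1.70% over the 5-FU libraries and 0.191% over the PBS libraries, the second of these smaller than the counting error of 1.56% in PBS replicate 3. Only 0.15% of the 10018 genes varied less among the PBS libraries.

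Myf5, the other lineage factor and the earliest of the family in the embryo, stood at 53.4, 61.7 and 50.9 CPM in 5-FU replicates 1 to 3, against 47.7, 48.8 and 46.8 CPM in PBS replicates 1 to 3. The groups did not overlap, and 5-FU replicate 2 was again the highest. The log2 fold change was 0.20 (95% interval 0.044 to 0.35, edgeR adjusted p = 0.111), and it was 0.11 without 5-FU replicate 2. Myf6, its neighbour on chromosome 10, was barely expressed, with 13, 11 and 14 counts in 5-FU replicates 1 to 3, against 14, 17 and 13 counts in PBS replicates 1 to 3. At this depth counting error alone was 27.7% of the value of PBS replicate 3, and the interval of the log2 fold change ran from -0.85 to 0.40 (edgeR adjusted p = 0.693). Differences within that interval are compatible with these counts, and the smallest difference that the test could detect was not computed.

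Taken by share, myogenin made up most of the myogenic helix-loop-helix transcripts. The summed level of Myod1, Myf5, Myog and Myf6 was 706, 847 and 632 TPM in 5-FU replicates 1 to 3, against 592, 631 and 570 TPM in PBS replicates 1 to 3. Myog held 60.8%, 64.7% and 55.1% of this sum in the 5-FU libraries and 55.7%, 59.1% and 55.9% in the PBS libraries. Myod1 held 31.8%, 28.1% and 36.9% in the 5-FU libraries, against 36.4%, 33.4% and 36.3% in the PBS libraries. The ratio of Myog to Myod1 in TPM was 1.90 ± 0.41 with 5-FU and 1.61 ± 0.14 with PBS (SD, n = 3 each), with overlapping groups: 5-FU replicate 3 had the lowest ratio of the 6 libraries, 1.49, and 5-FU replicate 2 the highest, 2.30.

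Among the MEF2 genes, Mef2d was the most abundant and gave the lowest p of all 9 members. It stood at 211, 222 and 210 CPM in 5-FU replicates 1 to 3, against 194, 196 and 181 CPM in PBS replicates 1 to 3, with no overlap. The log2 fold change was 0.16 with a 95% interval of 0.055 to 0.26 (edgeR adjusted p = 0.0653). Scaled by library size alone it passed (edgeR adjusted p = 0.0478), in a fit that called 7.48% of all genes. On log2(TPM + 1) the log2 fold change of Mef2d was 0.25 (limma adjusted p = 0.0670). In GENCODE M21 an exon of Mef2d overlaps 1700113A16Rik on the opposite strand; since no strand-marking step is described, reads of the pair cannot be told apart.

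Mef2a and Mef2c showed no difference that the test could detect. Mef2a, the second most abundant of the 3, stood at 66.3, 81.4 and 71.3 CPM in 5-FU replicates 1 to 3, against 68.6, 73.8 and 72.5 CPM in PBS replicates 1 to 3. Both the lowest and the highest of these libraries were of the 5-FU group, and the 95% interval of the log2 fold change was -0.14 to 0.17 (edgeR adjusted p = 0.939). Without 5-FU replicate 2 the log2 fold change of Mef2a was -0.0745, against 0.012 with all libraries. An exon of Mef2a overlaps Lysmd4 on the opposite strand. Mef2c, which is induced as myoblasts differentiate, stood at 8.73, 11.5 and 8.03 CPM in 5-FU replicates 1 to 3, against 9.88, 10.98 and 9.12 CPM in PBS replicates 1 to 3. The groups overlapped, with replicate 2 the highest in each, and the interval was -0.41 to 0.20 (edgeR adjusted p = 0.685). The log2 fold change of Mef2c was -0.10, and without 5-FU replicate 2 it was -0.27 (edgeR adjusted p = 0.239). In TPM, Mef2d held 76.4%, 74.2% and 76.1% of the summed level of these MEF2 genes in 5-FU replicates 1 to 3, against 74.3%, 73.0% and 71.5% in PBS replicates 1 to 3.

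Six4 stood at 32.2, 35.5 and 36.8 CPM in 5-FU replicates 1 to 3, against 30.8, 30.1 and 26.8 CPM in PBS replicates 1 to 3. The groups did not overlap, and here replicate 3 was the highest 5-FU library. The log2 fold change was 0.24 with a 95% interval of 0.076 to 0.40 (edgeR adjusted p = 0.0757). It passed without 5-FU replicate 1 (0.29, edgeR adjusted p = 0.0465), in a refit that called 5.38% of all genes. Six5, of the same family, was not called (0.25, edgeR adjusted p = 0.284). Pax3, Six2, Six3, Six6 and Mef2b were too low to test, with at most 6 counts over a group.

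Pax7 was low, at 9.25, 8.73 and 9.57 CPM in 5-FU replicates 1 to 3, against 9.69, 9.05 and 7.81 CPM in PBS replicates 1 to 3. The groups overlapped, with the highest and the lowest library both in the PBS group. The 95% interval of the log2 fold change was -0.20 to 0.28 (edgeR adjusted p = 0.854).

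The genes these factors are known to switch on were read as 2 lists. Of 28 tested early differentiation targets 2 rose and none fell: Cdkn1a, the cell cycle inhibitor p21, by 0.44 (edgeR adjusted p = 0.00238) and Cdh15, the myoblast adhesion protein M-cadherin, by 0.21 (edgeR adjusted p = 0.0293). Of 36 tested late muscle and MEF2 targets 2 rose and 1 fell. Ttn, the sarcomere spring titin, rose by 0.83 (edgeR adjusted p = 0.0177), and Ldb3, a Z-disc protein, by 0.30 (edgeR adjusted p = 0.0495). Myh2, a fast myosin heavy chain gene, fell by 1.07 (edgeR adjusted p = 0.0249) at very low levels, 0.844 ± 0.12 CPM with 5-FU and 1.76 ± 0.31 CPM with PBS (SD, n = 3 each). These shares compare with 7.14% of all genes. At an unadjusted p under 0.05 there were 12 of the 28 early and 10 of the 36 late targets, where 23.8% of all genes met that rule. Cdkn1a kept its call whichever single library was left out; it is also a p53 target, and some of its counts, like those of Myh2, were not whole numbers. Cdh15 lost its call without 5-FU replicate 2 and without each PBS replicate (edgeR adjusted p up to 0.115), Ttn without PBS replicates 1 and 3 (up to 0.0574), Myh2 without 5-FU replicates 2 and 3 and PBS replicates 1 and 2 (up to 0.123), and Ldb3 in all refits but that without 5-FU replicate 3 (up to 0.136). On log2(TPM + 1) the calls of Ttn (0.30, limma adjusted p = 0.336), Myh2 (-0.29, limma adjusted p = 0.137) and Ldb3 (0.37, limma adjusted p = 0.0777) were lost, and that of Ldb3 was also lost by limma-voom (adjusted p = 0.0541). Myh2 had no adjusted p by DESeq2 and was below the filter of a mean of at least 5 CPM, so neither setting called it.

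The median log2 fold change was 0.102 for the early list and 0.067 for the late list, against 0.001 for all genes tested, and both turned without 5-FU replicate 2, to -0.07 and -0.143. Without that library, and with PBS replicate 2 kept, 9 of 36 late targets had a log2 fold change above 0, against 20 with all 6 libraries. In the same refit Actc1 (-0.54, edgeR adjusted p = 0.00834) and Myl4 (-0.63, edgeR adjusted p = 0.0215), the cardiac actin and embryonic light chain of new myotubes, were called lower with 5-FU, as were the myosin heavy chains Myh1 (-0.84), Myh7 (-0.85) and Myh8 (-1.13). Without 5-FU replicate 3, in contrast, the fusion proteins Mymk (0.53, edgeR adjusted p = 0.0114) and Mymx (0.79, edgeR adjusted p = 0.00539) were called higher with 5-FU. With all 6 libraries none of these 7 was called. These 7, and Ryr1, Acta1, Six5, Tcf3, Tcf12 and Id3, were picked after their values were seen. Ryr1 was also called higher without 5-FU replicate 3 (0.53, edgeR adjusted p = 0.0438), and was not called with all 6 libraries (edgeR adjusted p = 0.0587). Ttn was still called higher without 5-FU replicate 2 (0.63, edgeR adjusted p = 0.0393). In the authors' deposited table Mymx has a log2 ratio of 0.662 and an FDR of 0.0222.

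By library, the median log2 ratio of the late targets to the PBS mean was -0.018, 0.447 and -0.215 in 5-FU replicates 1, 2 and 3, against 0.002, 0.135 and -0.125 in PBS replicates 1, 2 and 3. Acta1, skeletal actin, stood at 626, 898 and 511 CPM in 5-FU replicates 1 to 3, against 614, 684 and 577 CPM in PBS replicates 1 to 3. Actc1 stood at 130, 177 and 108 CPM in the 5-FU libraries, against 164, 191 and 158 CPM in the PBS libraries. For both genes replicate 2 was the highest of its group. Replicate 2 was the highest PBS library for 29 of the 36 late targets, where it was so for 28.8% of all genes tested. Lowest among the 5-FU libraries was replicate 3 for 28 of the 36 late targets and 24 of the 28 early targets, against 32.9% of all genes tested.

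**Figure D3:**
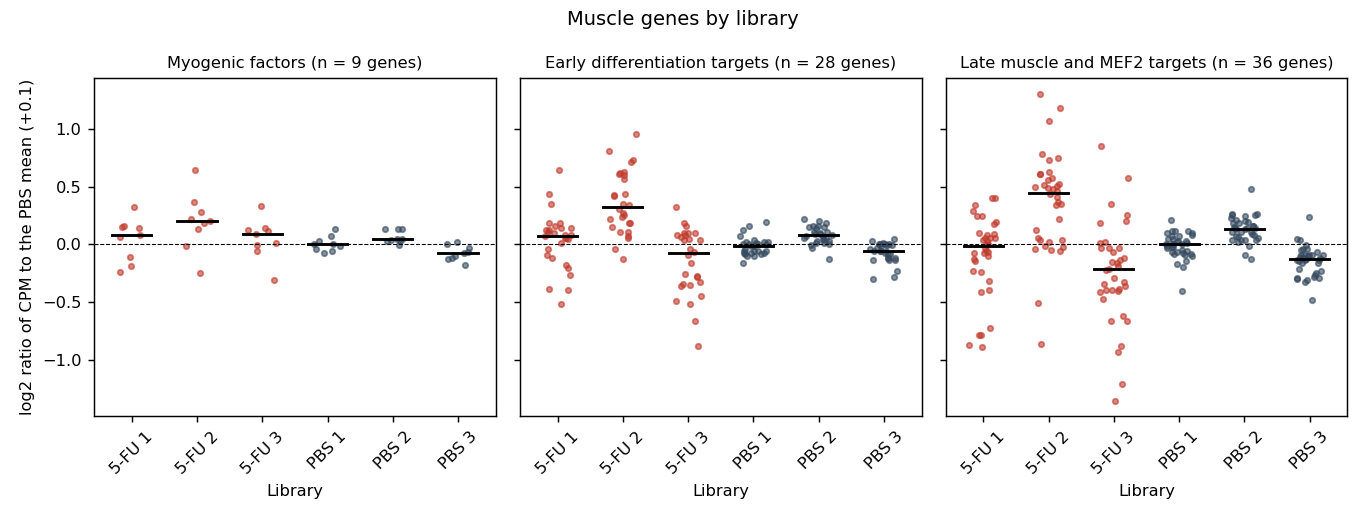
Log2 ratio of the CPM of each gene (points) to its PBS mean, with 0.1 CPM added to each (y axis), in each library (x axis; 5-FU in red, PBS in dark blue), for the 9 factors, the 28 early and the 36 late targets; black bars are medians. In 5-FU replicate 2 the medians were 0.206, 0.321 and 0.447, and in 5-FU replicate 3 they were 0.092, -0.078 and -0.215.

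Genes for proteins that act on the factors were read as 3 lists. Among 19 tested partners and coactivators edgeR called 0, with 6 at an unadjusted p under 0.05 (23.8% of all genes), DESeq2 called 1 and limma-voom 0; the acetyltransferase Ep300 had the lowest p (0.20, edgeR adjusted p = 0.0565). The E protein genes Tcf3 and Tcf12, which supply the dimer partners of the helix-loop-helix factors, stood at 140 ± 3.4 and 118 ± 7.1 CPM with 5-FU and 139 ± 3.2 and 118 ± 4.5 CPM with PBS (SD, n = 3 each). The median log2 fold change of this list was -0.004.

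Of 21 tested inhibitors of these factors 2 rose and 1 fell, where 3.87% of all genes were called higher and 3.26% lower, and the median was 0.031. At an unadjusted p under 0.05 there were 11 of the 21, against 23.8% of all genes. The Id proteins lack a DNA-binding region and tie up E proteins, and their genes went in different directions. Id1 stood at 59.1, 51.8 and 64.0 CPM in 5-FU replicates 1 to 3, against 48.1, 41.8 and 46.3 CPM in PBS replicates 1 to 3, and rose by 0.35 (edgeR adjusted p = 0.0250). Id2 stood at 19.5, 14.8 and 21.2 CPM in 5-FU replicates 1 to 3, against 26.4, 25.6 and 24.8 CPM in PBS replicates 1 to 3, and fell by 0.48 (edgeR adjusted p = 0.0245). Id3, the most abundant inhibitor, stood at 130 ± 13 CPM with 5-FU and 130 ± 3.5 CPM with PBS (SD, n = 3 each). Hey1, a repressor downstream of Notch, rose by 0.48 (edgeR adjusted p = 0.0327). All 3 calls were lost in some refits: Id1 without 5-FU replicates 1 and 3 and PBS replicates 2 and 3 (edgeR adjusted p up to 0.119), Id2 without each PBS replicate (up to 0.0921), and Hey1 without 5-FU replicate 2 and without each PBS replicate (up to 0.113). On log2(TPM + 1) the calls of Id2 (limma adjusted p = 0.0530) and Hey1 (limma adjusted p = 0.0565) were lost too.

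Of 19 tested genes of MEF2 signalling 2 fell and none rose, where 3.26% of all genes were called lower and 3.87% higher, and the median was -0.008. At an unadjusted p under 0.05 there were 5 of the 19, against 23.8% of all genes. Klf4, a zinc finger factor under MEF2 control, stood at 98.8 ± 3.5 CPM with 5-FU and 119 ± 5.0 CPM with PBS (SD, n = 3 each), and fell by 0.29 (edgeR adjusted p = 0.00610), a call kept in each of the 6 refits. Ppp3ca, a catalytic subunit of calcineurin, stood at 26.5 ± 1.9 CPM with 5-FU and 33.4 ± 3.0 CPM with PBS, and fell by 0.35 (edgeR adjusted p = 0.0253). Its call was lost without 5-FU replicates 1 and 2 and without PBS replicates 1 and 3 (edgeR adjusted p up to 0.0797), and on log2(TPM + 1), where its value was -0.21 (limma adjusted p = 0.172).

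**Figure D4:**
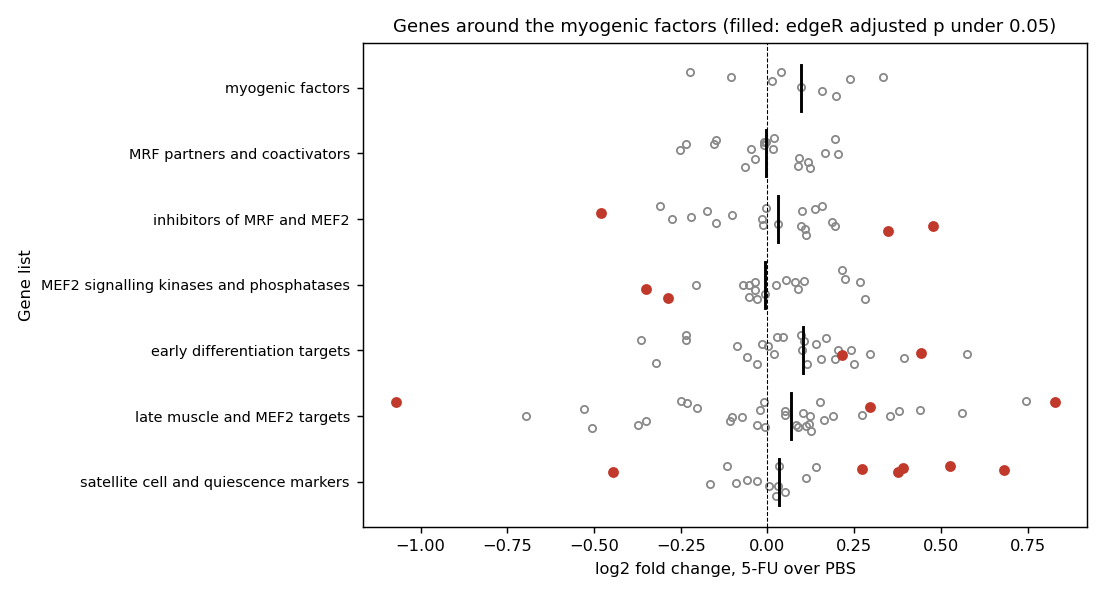
Log2 fold change of 5-FU over PBS (x axis) of each tested gene (points) in the 9 factors and 6 related lists (rows); filled points passed edgeR's test at an adjusted p under 0.05 and black bars are medians. None of the 9 factors is filled, while 5 satellite cell markers are filled on the right and 1 on the left.

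The genes whose log2 CPM followed Myod1 most closely over the 6 libraries, among 10018 tested genes with a mean of at least 5 CPM, were Cnot4 (Pearson's r 0.998), Hyls1 (0.994) and Clcn7 (0.992). Like Myod1, each was higher in all 3 libraries of the 5-FU group than in any PBS library. Those that followed Myog most closely were Klhl40 (0.989), Pla1a (0.989) and Ank (0.989), and 5-FU replicate 2 was the highest library for each. Klhl40 encodes a muscle protein of the sarcomere. With 6 points and this many genes, values this high are a description of likeness only.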

How the data were processed

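The authors deposited, per the file headers, an estimated count and a TPM value for each of 21899 genes in each library. The submitters' processing notes name StringTie 1.3.1; how reads were aligned and counted, and on which build, is not given in the sources used. The authors' deposited table of 186 genes gives log2 ratios with p-values whose test is not stated.

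Estimated counts were rounded and tested in R 4.3.3 with edgeR 4.0.16 (filterByExpr with at least 10 counts, TMM scaling, quasi-likelihood F test, two-sided, Benjamini-Hochberg over the 12135 genes tested), the group being the only term. CPM is the count divided by library size. All counts of the 9 members were whole (tolerance 0.005). Alternatives were DESeq2 1.42.0, limma 3.58.1 (voom, and on log2 TPM with pseudocounts of 1 and 0.1), other scalings and filters, an adjusted p under 0.01, a replicate block, and refits that each lacked 1 library.

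The members and lists were chosen with earlier results of these data known. Named were all 9 members, up to 4 called genes of each list by size of change (with none called, that of lowest p), and the 3 genes most like Myod1 and Myog. The 14 lists held 217 symbols, all of which matched. Results that need items withheld from the text are not reported here.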

Additional observations from a re-analysis of the deposited data

How the results depend on the processing

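The number of members called was 1 with library size alone (Mef2d) and 2 with the replicate number as a block (Myog, edgeR adjusted p = 0.0124, and Mef2d, edgeR adjusted p = 0.0458, where 9.88% of all genes were called), and it ranged from 0 to 1 over the 6 refits without 1 library; every other setting run gave 0. Deviations of same-numbered libraries from their group means, over all genes tested, correlated at -0.002, 0.087 and 0.132 for numbers 1, 2 and 3. Those of differently numbered libraries correlated at -0.133 to 0.044. Deviations within a group cancel out, so these correlations depend on each other. For the late targets the median log2 ratio to the PBS mean was highest in replicate 2 of each group (0.447 with 5-FU, 0.135 with PBS). It was lowest in replicate 3 of each group (-0.215 with 5-FU, -0.125 with PBS). Whether same-numbered samples share more than a number was not tested. Pairing by number moved the calls over all genes to 1199. The count of 866 genes became 494 and 491 on log2 TPM with pseudocounts of 1 and 0.1 (65.2% and 65.0% of them higher, against 54.3%), 239 at an adjusted p under 0.01, and 249 to 656 without 1 library. Among 140 tested genes of the related lists, the 17 calls became 32 with the block, 10 and 10 on log2 TPM, 5 at an adjusted p under 0.01, and 9 to 19 without 1 library. The sign of Pax7 turned without PBS replicate 3 (-0.043) and on log2 TPM (-0.0089 and -0.0115), and that of Mef2a without 5-FU replicate 2 (-0.0745) and without PBS replicate 1 (-0.0221), where the refits without 1 library ranged from -0.0429 to 0.1047 for Pax7 and from -0.0745 to 0.0794 for Mef2a; neither was called in any setting. By CPM in place of TPM, Mef2a ranked 4 and Myf5 ranked 5. Myf6 had no value at a mean of at least 5 CPM and no adjusted p by DESeq2. The causes of these shifts were not tested.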

Other observations

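Markers of satellite cells and quiescence, other than Pax7, held more calls than the lists above: of 18 tested 5 rose and 1 fell, with a median log2 fold change of 0.032, against 0.001 and 7.14% called over all genes. At an unadjusted p under 0.05 there were 7 of the 18, against 23.8% of all genes. The Notch receptor genes Notch1 and Notch3, which keep muscle stem cells undifferentiated, were among those that rose. Notch1 stood at 109, 113 and 114 CPM in 5-FU replicates 1 to 3, against 82.5, 82.2 and 66.0 CPM in PBS replicates 1 to 3 (log2 fold change 0.53, edgeR adjusted p = 0.00251). Notch3 stood at 305, 347 and 297 CPM in 5-FU replicates 1 to 3, against 253, 250 and 213 CPM in PBS replicates 1 to 3 (0.39, edgeR adjusted p = 0.0108). Both kept their call in each of the 6 refits without 1 library. Heyl, a repressor induced by Notch, rose by 0.68 (edgeR adjusted p = 0.0332) and lost its call without each PBS replicate (up to 0.103), by DESeq2 (adjusted p = 0.0880) and on log2(TPM + 1) (limma adjusted p = 0.0663). Without 5-FU replicate 2 its log2 fold change was 0.43 (edgeR adjusted p = 0.0426). In the authors' deposited table Heyl has a log2 ratio of 0.730 and an FDR of 0.129. The gene that fell was Sdc4, a surface proteoglycan of satellite cells, at 225 ± 9.0 CPM with 5-FU and 304 ± 8.5 CPM with PBS (SD, n = 3 each; -0.45, edgeR adjusted p = 0.000400), kept in each refit. Calcr, Chrdl2 and Dbx1 of this list were listed at 0 in every library.

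The protein-coding genes next to each member in the RefSeq order were also read. Adora1, the adenosine A1 receptor gene next to Myog, was called; it was picked after its value was seen. It was low, at 1.87, 2.14 and 1.96 CPM in 5-FU replicates 1 to 3, against 0.950, 0.762 and 0.825 CPM in PBS replicates 1 to 3 (log2 fold change 1.22, SE 0.22, edgeR adjusted p = 0.00856), and some of its counts were not whole. It kept its call in 5 of the 6 refits. Ppfia4, on the other side of Myog, was not called (0.14, edgeR adjusted p = 0.658).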
